A study of Mus musculus with 24 samples.

Results

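The genes described here write, maintain or remove cytosine methylation: Dnmt1, Uhrf1, Dnmt3a, Dnmt3b, Dnmt3l, Tet1, Tet2, Tet3 and Tdg. They were found by matching the Ensembl identifiers of the count table to these gene symbols in GENCODE M21, which gave 9 of the 48985 genes in the table. All 9 passed the filter on low counts that left 16253 genes for testing. RNA was measured in 24 libraries of F121/9 cells, female embryonic stem cells from a CAST/EiJ x S129/Sv cross, and each library had its counts assigned to the 129S1 or the CAST allele. All lines were grown without serum in 2i+LIF, which holds the MEK inhibitor PD0325901, the GSK-3β inhibitor CHIR99021 and leukaemia inhibitory factor. The 5 recombinations are named d3, d6, i7, i10 and i12. Each has a parental line with the genotype label control and lines labelled recombined: 12 and 21 for d3, 7 and 12 for i7, and 1 each for d6 (clone 16), i12 (clone 10) and i10 (clone 18). Each of these 7 lines is 1 clone, so differences between clones and differences made by a recombination cannot be told apart where there is only 1 clone. Every line had 2 replicates, described as biological duplicates, and the stated question was how gene expression changed on recombination.

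In mammals the de novo methyltransferases Dnmt3a and Dnmt3b add methyl groups to unmethylated CpG sites, and Dnmt3l has no catalytic activity of its own but binds and stimulates them. Uhrf1 recognises hemimethylated DNA after replication and brings in Dnmt1, which copies the pattern onto the new strand. Tet1, Tet2 and Tet3 oxidise 5-methylcytosine, and the glycosylase Tdg excises the further oxidised bases so that base excision repair can restore an unmethylated cytosine. Stem cells grown in 2i are known for low genome-wide methylation, low Dnmt3 expression and expression of Tet1 and Tet2.

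The upstream sequences of the 3 genes whose RNA differed most between libraries of the same line, Dnmt3b, Dnmt3l and Tet2, are shown because these genes carry the values that follow. Each is 250 bases before a RefSeq transcription start on GRCm38.p6, read 5′ to 3′ on the gene's own strand, with CpG dinucleotides, the sites that these enzymes act on, in capitals. All 9 genes matched an entry in that table, with 16 starts in all. Dnmt3b was taken from chr2:153649199-153649448 (plus strand), the starts of Dnmt3l from chr10:78042037-78042286, chr10:78049592-78049841 and chr10:78055085-78055334 (plus strand), and Tet2 from chr3:133544391-133544640 (minus strand).
Dnmt3b: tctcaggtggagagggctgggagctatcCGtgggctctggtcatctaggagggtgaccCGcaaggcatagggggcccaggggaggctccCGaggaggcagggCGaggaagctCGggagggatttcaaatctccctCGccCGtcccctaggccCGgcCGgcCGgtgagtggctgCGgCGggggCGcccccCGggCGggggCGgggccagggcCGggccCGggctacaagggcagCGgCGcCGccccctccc
Dnmt3l, start 1: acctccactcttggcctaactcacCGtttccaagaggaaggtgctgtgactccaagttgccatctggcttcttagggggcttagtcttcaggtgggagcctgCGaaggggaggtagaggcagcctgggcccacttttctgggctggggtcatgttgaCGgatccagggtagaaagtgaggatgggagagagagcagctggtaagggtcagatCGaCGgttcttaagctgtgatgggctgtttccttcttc
Dnmt3l, start 2: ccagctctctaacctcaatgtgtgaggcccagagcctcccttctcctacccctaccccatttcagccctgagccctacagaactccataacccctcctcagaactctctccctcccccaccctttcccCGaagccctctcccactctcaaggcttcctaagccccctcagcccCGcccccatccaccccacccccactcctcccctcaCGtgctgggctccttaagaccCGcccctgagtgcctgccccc
Dnmt3l, start 3: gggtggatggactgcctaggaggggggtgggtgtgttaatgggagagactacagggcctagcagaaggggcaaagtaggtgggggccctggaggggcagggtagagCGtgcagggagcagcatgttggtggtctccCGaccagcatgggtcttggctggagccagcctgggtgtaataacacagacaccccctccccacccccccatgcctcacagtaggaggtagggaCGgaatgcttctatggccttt
Tet2: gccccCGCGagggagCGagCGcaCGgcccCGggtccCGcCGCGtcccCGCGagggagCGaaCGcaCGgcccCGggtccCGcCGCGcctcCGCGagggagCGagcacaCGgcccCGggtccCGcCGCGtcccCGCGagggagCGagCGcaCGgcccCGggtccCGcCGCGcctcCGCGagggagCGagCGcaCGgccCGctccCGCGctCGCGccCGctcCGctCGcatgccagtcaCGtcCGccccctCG
The Tet2 window held 51 CpG dinucleotides, and 0.067% of the 32851 promoters of the same length held as many. The Dnmt3b window held 21, and 16.3% of promoters held as many. The Dnmt3l windows held 5, 4 and 3, close to the median of 6 over all promoters. These 3 genes therefore differed widely in CpG content next to their starts. The E2F-like motif GCGGGAA, searched with its reverse complement TTCCCGC, was present in 3.82% of promoters. It was the only motif searched. Among the 16 starts of the 9 genes this motif was found at 1, the first start of Uhrf1.

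Total counts per library ran from 3286819 to 15581094. The i10 and i12 libraries had 3286819 to 6920899 and the other libraries 6345947 or more. Markers of naive stem cells were present throughout, with summed levels of 6046 to 8540 CPM (counts scaled to the TMM effective library size). Of the 5 primed markers, Fgf5 was at 0 in 18 of the 24 libraries, whereas Lefty2 had 31.9 to 633 CPM and Fst 4.70 to 17.9, and the summed primed level was 42.5 to 643 CPM. Of the 6 fibroblast markers, Dcn was at 0 in all libraries, Col3a1 in 22 and Postn in 21, whereas Thy1 had 3.32 to 24.5 CPM and Col1a1 0.191 to 3.77. Replicate 2 of the d3 parental line stood apart: relative to replicate 1, the median gene with under 2 kb of exon sequence was higher by 0.22 on the log2 scale and the median gene with over 9 kb was lower by 0.44. In the other 11 lines these medians lay between -0.08 and 0.07. In the d3 comparisons, results are given with and without this library for Dnmt1 in the clones and for Dnmt3l against the i12 and i10 parental lines. They are also given so for the allelic ratios of Tet1 and Tdg. Other d3 comparisons moved with it too. The Tet1 difference of d3 from the i7 parental line was -0.84, and -0.33 without it. The Dnmt3b difference from the i12 parental line was 1.20, and 1.65 without it.

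**Figure D1:**
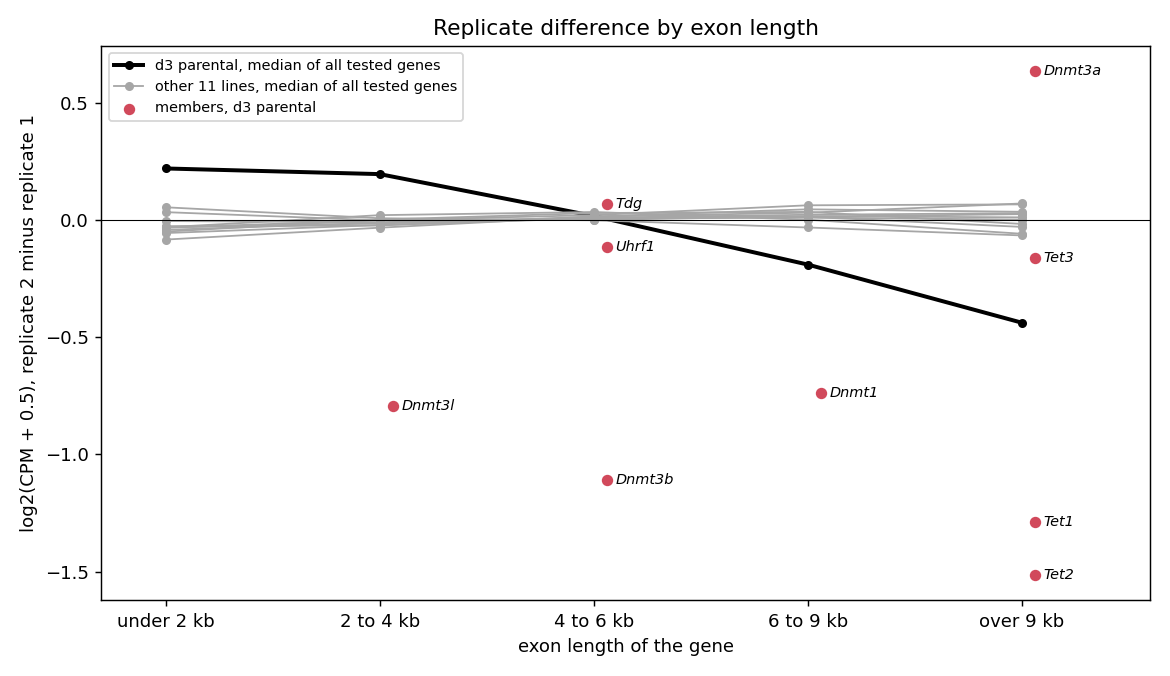
Difference between replicates (log2(CPM + 0.5), replicate 2 minus replicate 1) by exon length of the gene, as medians over all tested genes for the d3 parental line (black) and the other 11 lines (grey), with the 9 genes in the d3 parental line as red points. The black line falls from 0.22 for genes under 2 kb to -0.44 for genes over 9 kb, and the points of Uhrf1, Dnmt1, Dnmt3b, Dnmt3l, Tet1 and Tet2 lie below it at their length.

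Per kilobase of exon, the parental lines gave an order of levels that ran from Uhrf1 to Tet3. Uhrf1 had a mean of 293 ± 43.1 CPM per kb (SD over 5 parental lines), Tdg 83.5 ± 4.79 and Dnmt1 47.4 ± 6.35. Tet1 followed at 23.7 ± 5.04, Dnmt3b at 22.5 ± 10.6, Dnmt3l at 13.0 ± 13.5 and Tet2 at 12.3 ± 4.34. Dnmt3a had 1.48 ± 0.217 and Tet3 0.358 ± 0.0918 CPM per kb. The maintenance pair and Tdg were thus the most abundant transcripts per length, and Dnmt3a and Tet3 the least. Over the 10 parental libraries, Uhrf1 (218 to 380), Tdg (74.4 to 96.0) and Dnmt1 (27.8 to 52.8) did not overlap each other. The ranges of Dnmt1, Tet1 (9.89 to 33.3), Dnmt3b (5.44 to 47.0) and Dnmt3l (1.21 to 42.8) overlapped, and Tet2 (4.37 to 20.2) overlapped the last 3 of these, so their order was not resolved beyond the spread. Dnmt3a (1.05 to 1.88) overlapped Dnmt3l only through its lowest library, i10 parental replicate 2, and lay above Tet3 (0.257 to 0.50) without overlap.

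**Figure D2:**
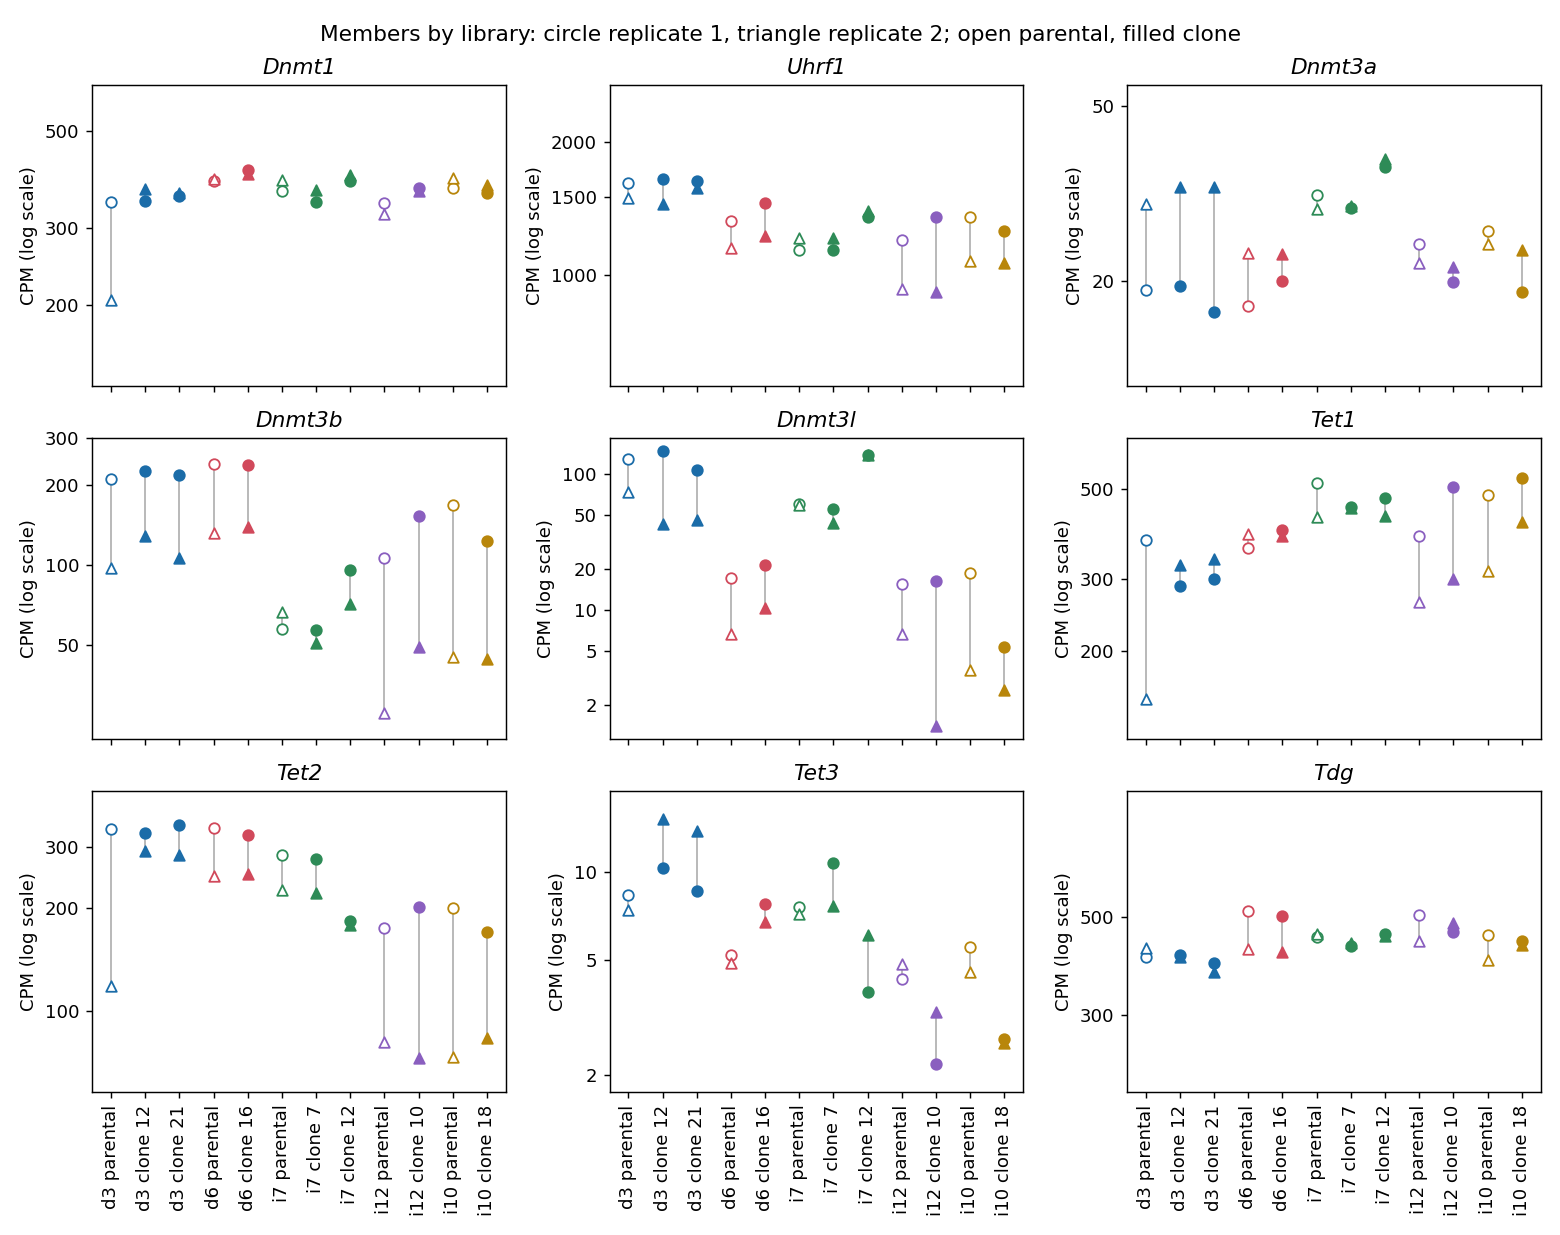
Level of each of the 9 genes in every library (CPM, log axis), with circles for replicate 1, triangles for replicate 2, open symbols for parental lines and filled symbols for clones. Dnmt1, Uhrf1 and Tdg stay within a 2-fold band, whereas Dnmt3l runs from 1.41 to 147 CPM.

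Dnmt1 (chr9:20907209-20959888, minus strand, GRCm38) was the steadiest of the methyltransferase genes. Its lowest, median and highest levels over the 24 libraries were 205, 367 and 406 CPM. The lowest value belonged to d3 parental replicate 2, whereas replicate 1 had 343 CPM. Clone 12 of d3 had 345 and 367 CPM and clone 21 had 355 and 361 CPM, above both parental libraries. The change was 0.38 (log2, SE 0.17) in clone 12 and 0.38 (SE 0.17) in clone 21, and neither was called by edgeR's quasi-likelihood test (adjusted p = 0.996 and 1.00). Without d3 parental replicate 2 the changes were 0.05 and 0.06. Without d3 parental replicate 1 they were 0.78 and 0.79, and both were called (adjusted p = 0.00816 and 0.00876, against 1.00 at the other end of the alternatives). The Dnmt1 difference in d3 therefore rested on which parental library was kept. In the other 5 clone comparisons its change lay between -0.08 and 0.14.

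Uhrf1 (chr17:56303321-56323486, plus strand) ran from 912 CPM in i12 clone 10 replicate 2 to 1655 CPM in d3 clone 12 replicate 1, with a median of 1291 CPM. The d3 libraries held 1448 to 1655 CPM. Its changes in the 7 clones lay between -0.06 and 0.22, with 95% intervals reaching from -0.47 to 0.63, and 4 of 7 clones had the higher mean. A processed pseudogene on chromosome X, Gm5648, matches the Uhrf1 transcript at 98.3% identity over 1590 bp and had 573 to 3966 counts per library on the 129S1 allele, so reads of the pair could have been split by the counting and the level of Uhrf1 is uncertain to that extent.

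The catalytic de novo genes differed in level and in behaviour. Dnmt3a (chr12:3806007-3914443, plus strand) had a lowest, median and highest level of 17.0, 23.8 and 37.9 CPM, from 78 to 500 counts per library. Dnmt3b (chr2:153649450-153687730, plus strand) ran from 27.8 to 240.0 CPM with a median of 106. Its levels followed the replicate within most lines. In the d3 parental line Dnmt3b had 210 and 97.0 CPM in replicates 1 and 2, in d6 240.0 and 131, in i12 106 and 27.8 and in i10 168 and 45.0. The i7 parental line had 57.3 and 66.4 CPM. Replicate 1 of Dnmt3b was the higher in 11 of 12 lines, the i7 parental line being the exception. The gene Dnmt3c, also on chromosome 2, matches the Dnmt3b transcript at 93.9% identity over 1434 bp. Summed over the libraries, Dnmt3c had 8 counts on 129S1 and 377 on CAST. Whether reads were exchanged between Dnmt3b and Dnmt3c was not tested.

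Dnmt3l (chr10:78041947-78063622, plus strand) varied most, with a 104-fold range from 1.41 CPM (6 counts) in i12 clone 10 replicate 2 to 147 CPM (2224 counts) in d3 clone 12 replicate 1. The d3 parental line had 128 and 73.6 CPM and the i7 parental line 60.7 and 59.0. The d6 parental line had 17.2 and 6.62 CPM, the i12 line 15.5 and 6.63 and the i10 line 18.7 and 3.63. The d3 and i7 parental libraries were all above the d6, i12 and i10 parental libraries, with no overlap. Such separation was common: in these pairs of lines 41.8% to 51.6% of all genes tested did not overlap. Among the clones, clone 12 of i7 had 139 and 138 CPM, above both i7 parental libraries and above clone 7 (54.9 and 43.5 CPM). The share of all genes without overlap was 49.2% between clone 12 and the parental line and 50.7% between clone 12 and clone 7. Replicate 1 of Dnmt3l was the higher in 12 of 12 lines.

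The autoimmune regulator gene Aire lies on the other strand across Dnmt3l, and the strand setting of the counting is not given in the sources used here, so reads of the pair cannot be told apart with certainty. Aire had 4649 counts over all libraries against 13228 for Dnmt3l. Their log2 levels had a Pearson r of 0.86 and a Spearman rho of 0.82 over the 24 libraries, which share lines and replicates. For deviations from the group means the Pearson r was 0.64. Aire was also high in i7 clone 12 (30.1 and 37.2 CPM) against the i7 parental line (20.4 and 22.0 CPM). In the d6 lines the genes went opposite ways between replicates: Aire had 10.3 CPM in replicate 1 and 23.0 CPM in replicate 2 of the parental line. By smaller steps Aire was also higher in replicate 2 in the d3 parental line (25.7 and 26.1 CPM) and d3 clone 21 (28.3 and 33.9 CPM). The same held in the i7 parental line and i7 clone 12. In the remaining lines both genes were higher in replicate 1. Whether Aire reads contributed to the Dnmt3l values was not tested.

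Among the oxidases, Tet1 (chr10:62804570-62908996, minus strand) had a lowest, median and highest level of 153, 385 and 532 CPM. The lowest belonged to d3 parental replicate 2 and the highest to i10 clone 18 replicate 1. Tet2 (chr3:133463679-133545139, minus strand) ran from 73.1 to 348 CPM with a median of 223. The d3 parental line had 338 and 118 CPM of Tet2, the d6 line 340.1 and 248, the i7 line 284 and 225, the i12 line 175 and 81.4 and the i10 line 199 and 73.7. Tet2 was higher in replicate 1 in 12 of 12 lines, and the i10 and i12 lines lay low. Tet3 (chr6:83362373-83459084, minus strand) was scarce throughout, with 11 to 170 counts per library and 2.18 to 15.3 CPM.

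Tet3 was the one gene of the 9 whose clone and parental libraries did not overlap in any of the 7 comparisons, although the direction differed. It had 8.35 and 7.41 CPM in the d3 parental line against 10.3 and 15.3 in clone 12 and 8.60 and 13.9 in clone 21. The i12 parental line had 4.28 and 4.85 CPM against 2.18 and 3.30 in clone 10. The i10 parental line had 5.53 and 4.53 CPM against 2.66 and 2.57 in clone 18. In i7 the separation of clone 7 was close to a tie. Its replicate 2 had 7.624 CPM and parental replicate 1 had 7.621. The share of all genes without overlap in all 7 comparisons was not computed. The clone was higher in both d3 clones, d6 clone 16 and i7 clone 7, and lower in i7 clone 12, i12 clone 10 and i10 clone 18. Over all genes tested, the share without overlap was 22.4% for d3 clone 12, 23.2% for d3 clone 21 and 18.3% for d6 clone 16. It was 25.7% and 49.2% for i7 clones 7 and 12, 19.7% for i12 and 17.3% for i10. The change was 0.69 (SE 0.31) in d3 clone 12 and -0.95 (SE 0.38) in i10 clone 18, with edgeR adjusted p of 0.996 and 1.00. A joint edgeR test of whether the 5 recombination effects differed called none of the 9 genes and 0.0123% of all genes. Tet3 (adjusted p = 1.00) was the only one of the 9 under 0.05 before adjustment, beside 0.689% of all genes.

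Tdg (chr10:82629828-82650799, plus strand), which follows the oxidases in the pathway, was the steadiest of all, with a lowest, median and highest level of 376, 439 and 516 CPM and a 1.37-fold range. Its changes in the 7 clones lay between -0.11 and 0.03, with 95% intervals from -0.41 to 0.33. Processed pseudogenes match its transcript closely, among them Tdg-ps on chromosome 15 at 98.7% over 2968 bp and Gm5597 on chromosome 7 at 99.3% over 1193 bp, and these were not analysed here. Reads that fit both a pseudogene and Tdg may therefore be missing from or added to its counts.

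Against their parental lines, the 9 genes gave 63 comparisons over the 7 clones, and none was called by edgeR's quasi-likelihood test at an adjusted p under 0.05. At an unadjusted p under 0.05 there were 4, Dnmt1 and Tet3 in d3 clone 12, Dnmt1 in d3 clone 21 and Tet3 in i10 clone 18. Calls over all 16253 genes were rare as well. The called share was 0.0123% and 0.0554% for clones 12 and 21 of d3, 0.0123% for d6, 0% and 0.0246% for clones 7 and 12 of i7, and 0% for i12 and i10. At an unadjusted p under 0.05 the shares, in the same order, were 4.39%, 2.38%, 0.751%, 0.295%, 6.19%, 1.31% and 0.788%. The median change of the 9 genes per clone lay between -0.12 and 0.21, and that of all genes between -0.01 and 0.01. The 95% intervals for Dnmt1, Uhrf1 and Tdg stayed between -0.47 and 0.75, whereas those for Dnmt3l reached from -3.63 to 2.75 over the 7 clones. In this fit, which does not use the replicate number, a change of several fold in Dnmt3l could go uncalled in some clones.

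**Figure D3:**
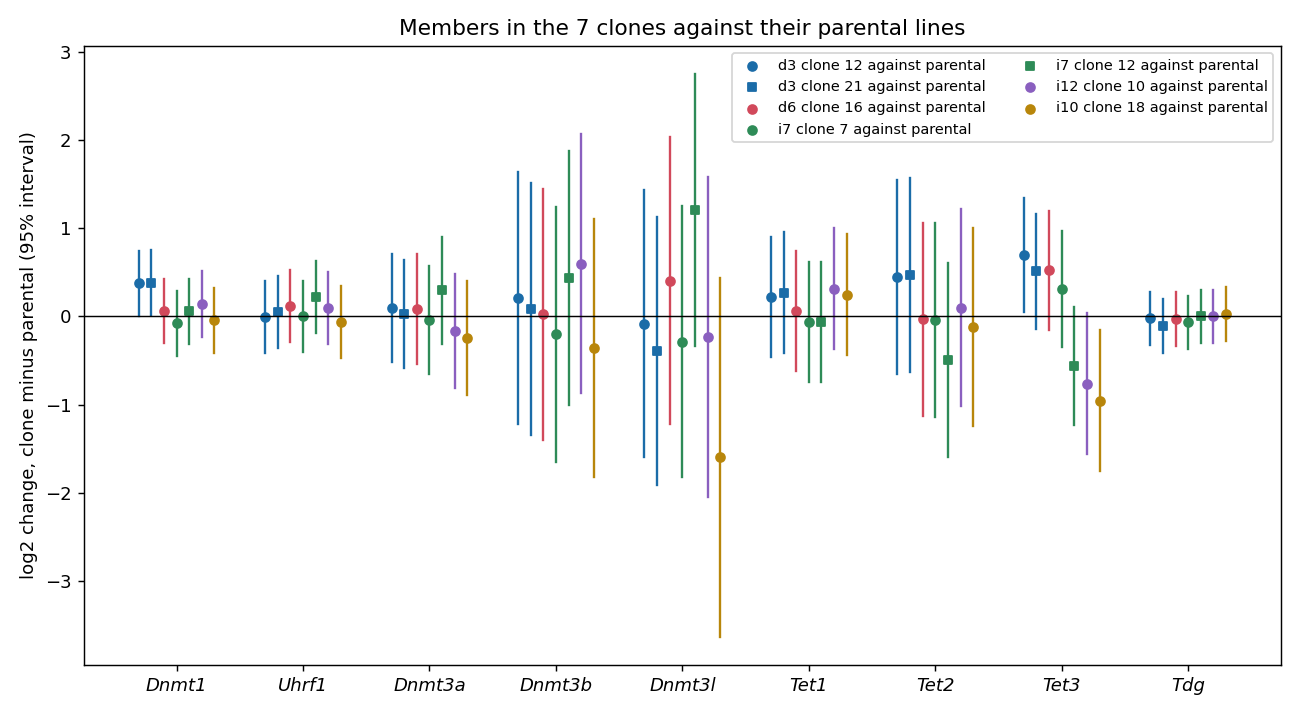
Change of each of the 9 genes in each of the 7 clones against its parental line (log2, clone minus parental), with 95% intervals from the edgeR fit without a replicate block. Points for Uhrf1 and Tdg lie between -0.11 and 0.22, and the Dnmt3l and Dnmt3b intervals are the widest.

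Where the replicate number was taken into account, 1 of the 63 comparisons was called, Dnmt3l in i7 clone 12. Its level of 139 and 138 CPM against 60.7 and 59.0 CPM in the parental line gave a change of 1.21 (log2, SE 0.73, edgeR adjusted p = 0.931). In a fit that adds a replicate block, the number nested in the recombination, the change was 1.21 (SE 0.23, adjusted p = 0.00563). Over the alternatives tried the change lay between 1.20 and 1.26 and its adjusted p between 0.00258 and 1.00. The fit with the block called 6.27% of all genes for i7 clone 12, 0.0123% and 0.123% for the d3 clones 12 and 21, 0.0861% for d6 and 0% for the other 3 clones. At an unadjusted edgeR p under 0.05 with the block there were 12 of the 63, beside 1.82% to 20.1% of all genes per clone. In i7 clone 12, 6 of the 9 genes did not overlap the parental libraries, while 49.2% of all genes did not. The mesendoderm gene T, a transcription factor of the primitive streak, had 43.7 and 19.9 CPM there against 9.20 and 8.31 in the parental line. With the block it was the 1 of 4 mesendoderm markers called, and Thy1 the 1 of 6 fibroblast markers, whose other members include Dcn at 0. The summed mesendoderm level was 49.5 and 26.0 CPM in clone 12 against 12.7 and 11.5 in the parental line, and the summed fibroblast level 25.7 and 25.1 CPM against 16.6 and 17.2. None of the 8 naive markers was called in that comparison. The part of these differences in the Dnmt3l result was not tested.

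Elsewhere the Dnmt3l changes were -0.08 and -0.39 for the d3 clones, 0.40 for d6, -0.28 for i7 clone 7, -0.24 for i12 and -1.60 (SE 0.96) for i10. Dnmt3l was thus higher in 2 of 7 clones. Dnmt3b was higher in 5 of 7, with the highest change in i12 clone 10 (0.60) and the lowest in i10 clone 18 (-0.36). Dnmt3a lay between -0.24 and 0.30, Tet1 between -0.07 and 0.31 and Tet2 between -0.50 and 0.47. The upper Tet2 value was d3 clone 21, with 348 and 283 CPM against 338 and 118 in the parental line, so it too contains the low parental replicate 2. Averaged over the recombinations, the clone effect was 0.11 for Dnmt1, 0.06 for Uhrf1, -0.03 for Dnmt3a, 0.10 for Dnmt3b and -0.24 for Dnmt3l. It was 0.16 for Tet1, 0.03 for Tet2, -0.14 for Tet3 and -0.02 for Tdg. The means include d3, whose parental replicate 2 was low for Dnmt1, Tet1 and Tet2. In the edgeR fit without the replicate block none of these mean effects was called and none was under an unadjusted p of 0.05. Of all genes 0.0123% were called and 1.2% were under that p.

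Recombinations d3 and i7 had clones that could be compared with each other. Without the replicate block none of the 18 comparisons was called by edgeR, and 1 was at an unadjusted p under 0.05, Tet3 between the i7 clones (-0.88 in clone 12 against clone 7, SE 0.31, adjusted p = 0.411). Of all genes, 0.0923% were called between the i7 clones and 0.0492% between the d3 clones, and 8.29% and 0.744% were at an unadjusted p under 0.05. Dnmt3l was higher in i7 clone 12 than in clone 7 by 1.49 (SE 0.74, edgeR adjusted p = 0.624), and with the replicate block by 1.50 (SE 0.24, adjusted p = 8.45e-04, from 1.75e-05 to 1.00 over the alternatives). Dnmt3b had 95.9 and 71.7 CPM in i7 clone 12 against 56.8 and 50.8 in clone 7. The difference was 0.64 (SE 0.69, edgeR adjusted p = 0.910), and 0.63 with the replicate block (SE 0.15, adjusted p = 0.0131, the lowest of the alternatives). With the block, 9.76% of all genes were called between the i7 clones and 0.0984% between those of d3. Both calls between the i7 clones were thus made with the block and not in the fit without it, and the Dnmt3b difference was not called in 7 of the 8 other settings or on leaving out any of the 24 libraries.

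The parental lines, which carry no recombination by their labels, show how far these genes vary between lines. In a joint edgeR test of the 5 parental lines, 1 of the 9 genes was called, Dnmt3l (adjusted p = 0.0244), and 6.64% of all genes were called. The adjusted p was 0.219 for Dnmt1, 0.277 for Uhrf1, 0.593 for Dnmt3a and 0.307 for Dnmt3b. It was 0.345 for Tet1, 0.314 for Tet2, 0.257 for Tet3 and 0.737 for Tdg. Of the 90 comparisons between pairs of parental lines, 2 were called, both of Dnmt3l. It was higher in the d3 than in the i12 parental line by 3.18 (log2, SE 0.83, edgeR adjusted p = 0.0368) and than in the i10 parental line by 3.10 (SE 0.82, adjusted p = 0.0475). Of all genes, 4.96% and 3.35% were called in these pairs. The shares were 1.82% for d3 against d6, 3.73% for d3 against i7, 1.13% for d6 against i7 and 0.172% for d6 against i12. They were 2.2% and 1.13% for i7 against i12 and i10, and 0% for d6 and i12 against i10. The calls were close to the threshold. Without d3 parental replicate 2 the difference to i12 was 3.53 (adjusted p = 0.0579) and that to i10 3.45 (adjusted p = 0.0778). Without d3 parental replicate 1 they were 2.75 and 2.66 (adjusted p = 0.0823 and 0.0912). The d3 line was above d6 by 3.06 (SE 0.80, edgeR adjusted p = 0.0599) and above i7 by 0.75 (adjusted p = 0.535). Among the 10 pairs, the Dnmt3l differences of d3 and of i7 from d6, i12 and i10 lay between 2.30 and 3.18 in size. The differences of d6, i12 and i10 from each other were at most 0.13 in size. These sizes were not tested against the clone changes. With a replicate block common to all lines, edgeR called 12 of the 90 pair comparisons, 6 of them of Dnmt3l. Of all genes, 0.0185% to 16.6% were called in the pairs with that block. Pairing across all recombinations was not established.

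Replicates of 1 line differed for some of these genes, in the same direction in most lines. A term for the number, common to all lines and added after the data were seen, was called by edgeR for Dnmt3l (replicate 2 minus replicate 1 by -1.02, SE 0.20, adjusted p = 0.00152), Dnmt3b (-0.97, SE 0.16, adjusted p = 4.92e-04) and Tet2 (-0.70, SE 0.14, adjusted p = 0.00142). Of all genes 28.1% were called, 14.6% higher and 13.5% lower in replicate 2. Uhrf1 (-0.17), Tet1 (-0.29) and Dnmt3a (0.27) had adjusted p of 0.0559, 0.0546 and 0.0572, and Tdg (-0.07), Tet3 (0.11) and Dnmt1 (-0.03) had 0.342, 0.575 and 0.783. A share of 3 of 9 is close to that of all genes, so the number of calls is not particular to these genes. What the replicate number stands for is not given in the labels.

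The size of the difference varied between recombinations. In the i7 lines Dnmt3b differed by 0.21, -0.16 and -0.42 and Dnmt3l by -0.04, -0.33 and -0.01 in the parental line, clone 7 and clone 12, as log2(CPM + 0.5). Those were the smallest for both genes. In i12 clone 10 Dnmt3l had 16.3 CPM in replicate 1 and 1.41 CPM in replicate 2, where the second value is 6 counts.

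**Figure D4:**
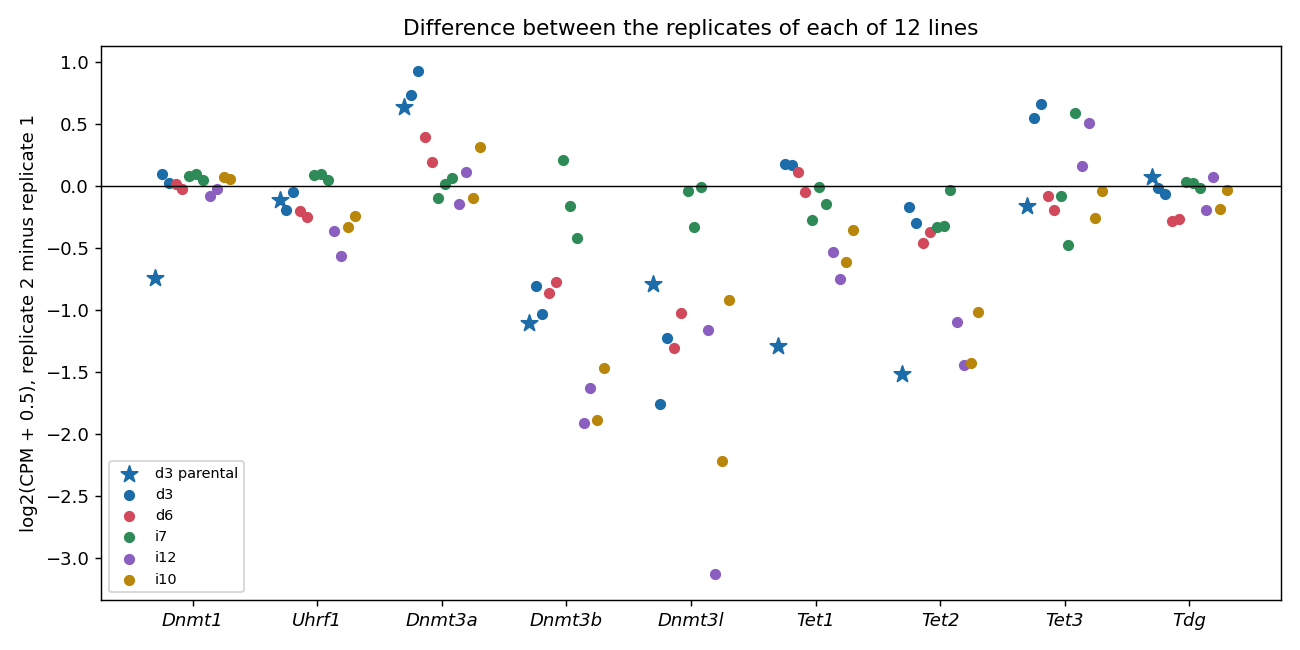
Difference between the replicates (log2(CPM + 0.5), replicate 2 minus replicate 1) of each of the 9 genes in each of the 12 lines, coloured by recombination, with the d3 parental line as a star. Dnmt3l and Tet2 lie below 0 in all 12 lines and Dnmt3b in 11, and the i7 lines lie nearest to 0 for Dnmt3b and Dnmt3l.

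Genes that moved together within lines can be read from the deviations of the 24 libraries from their group means, which share the replicate number. Within groups, Dnmt3l went with Uhrf1 (r = 0.93) and with Dnmt3b (0.90), and Dnmt3b with Tet2 (0.92) and Uhrf1 (0.90). Tet1 went with Tet2 (0.89), a pair that d3 parental replicate 2 also moves together. Dnmt3a went the other way, with r of -0.53 to Dnmt3l and -0.50 to Dnmt3b. Each group has only 2 libraries, so these values describe 12 replicate differences.

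Likeness was measured by Pearson r of log2 CPM over the 24 libraries, with 10739 candidate genes of 50 or more counts on average. Dnmt3b was closest to the replication licensing gene Cdc6 (r = 0.97, rho = 0.94) and to Amd1 (0.96, 0.94), which supplies polyamine synthesis from S-adenosylmethionine. Dnmt3l was closest to Adap1 (0.93, 0.92) and to the ETS factor gene Etv4 (0.93, 0.91). Tet1 was closest to the histone methyltransferase gene Kmt2a (0.94, 0.88) and to Herc2 (0.92, 0.88), and Tet2 to Mfsd14a (0.95, 0.92) and Trim59 (0.93, 0.86). Uhrf1 was closest to Elobl (0.94, 0.94) and 2210409E12Rik (0.94, 0.95), Dnmt3a to Pou6f1 (0.88, 0.88) and Fam45a (0.87, 0.80). Tdg was closest to Nckap5l (0.84, 0.86) and Krt42 (0.84, 0.85) and Tet3 to Zfp185 (0.86, 0.81). Dnmt1 was closest to Phip (0.89, 0.47) and Ncapg2 (0.89, 0.64). Without the 2 libraries farthest from the median of the Dnmt1 level, these fell to 0.46 and 0.53, whereas the others named lay between 0.79 and 0.97 after the same step for their own gene. The likeness to Dnmt1 thus rested on 2 libraries.

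Each library gave an allelic share, the percentage of a gene's counts assigned to 129S1, with 95% Wilson intervals that cover counting error only. Dnmt1 was near balance, with 44.7% to 50.1% and a median of 47.7%. Uhrf1 was carried mainly by 129S1, with 85.0% in d3 parental replicate 2 and 78.1% to 81.7% in the other 23 libraries. Tdg was counted almost wholly on CAST, with a 129S1 share of 1.38% to 4.00%. Dnmt3a leaned to CAST (26.3% to 44.0%), and Dnmt3b lay between 45.0% and 61.6%. Tet1 leaned to 129S1, with 79.3% in d3 parental replicate 2 and 56.2% to 66.3% in the others. Tet2 lay between 46.1% and 62.6% and Tet3, with its few counts, between 30.0% and 61.5%. Dnmt3l ranged from 16.7% to 76.2%, but the low value was 1 of 6 counts.

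**Figure D5:**
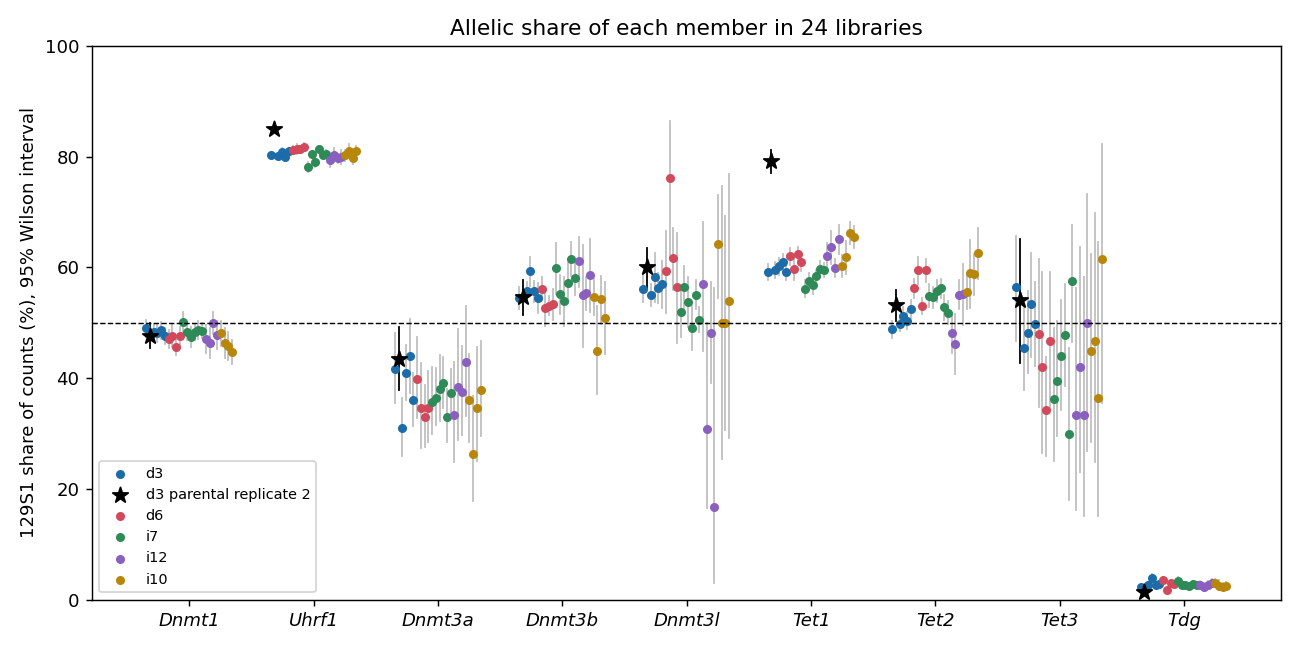
Share of counts assigned to 129S1 (%) for each of the 9 genes in each library with 95% Wilson intervals, coloured by recombination, with d3 parental replicate 2 as a black star. Uhrf1 lies near 80%, Tdg below 5%, and the star stands apart for Tet1 (79.3%) and Uhrf1 (85.0%).

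Averaged over the 5 parental lines, the log2 ratio of 129S1 to CAST was -5.28 (SE 0.085) for Tdg, 2.07 (SE 0.043) for Uhrf1, -0.78 (SE 0.084) for Dnmt3a and 0.72 (SE 0.079) for Tet1. It was 0.44 (SE 0.12) for Dnmt3l, 0.32 (SE 0.052) for Dnmt3b, 0.20 (SE 0.043) for Tet2, -0.13 (SE 0.031) for Dnmt1 and -0.32 for Tet3. Of the 9 genes, 8 were called by edgeR and Tet3 was not (adjusted p = 0.0949). Calls were common over the 10795 genes tested: 69.2% were called, 36.1% with more 129S1 and 33.1% with more CAST. A larger ratio in size was found in 0.825% of genes for Tdg and 7.07% for Uhrf1, but in 26.5% for Dnmt3a, 28.6% for Tet1 and 44.0% to 78.7% for the other 5. Tdg and Uhrf1 were therefore the most imbalanced of the 9, and both have close processed pseudogenes. The Uhrf1 copy Gm5648 had 42329 counts on 129S1 and 6504 on CAST. How reads with several matches were assigned to alleles is not given in the sources used here, and the part of these copies in the imbalance was not tested.

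No allelic ratio of the 9 genes changed between a clone and its parental line by edgeR's adjusted test (0 of 63, with 5 at an unadjusted p under 0.05). In the order d3 (12 and 21), d6, i7 (7 and 12), i12 and i10, the called shares of all genes were 0.0463%, 3.41%, 0.0463%, 0.00926%, 2.33%, 0.00926% and 0%. The shares at that unadjusted p were 4.84%, 6.13%, 3.19%, 1.94%, 6.46%, 5.28% and 3.22%. Of the 5, 4 were in d3. Tdg had 0.87 (SE 0.25, edgeR adjusted p = 0.656) in clone 12 and 0.59 (adjusted p = 0.605) in clone 21, towards 129S1. Without d3 parental replicate 2 these were 0.54 and 0.26, and without replicate 1 they were 1.29 and 1.02 (edgeR adjusted p = 0.0276 and 0.0565), so that clone 12 was called. Tet1 had -0.60 and -0.59 (edgeR adjusted p = 0.929 and 0.604), which became 0.04 and 0.06 without d3 parental replicate 2. Without replicate 1 they were -1.36 and -1.35, and both were called (edgeR adjusted p = 1.18e-05 and 4.87e-07). The remaining one was Tet2 in i12 clone 10, with a 129S1 share of 55.1% and 55.2% against 48.2% and 46.1% in the parental line. Its log2 ratio differed by 0.45 (SE 0.15, edgeR adjusted p = 0.709).

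Other genes of the pathway were counted from 5 lists. These were partners of maintenance methylation, readers of methylated CpG, repair after oxidation, regulators of the machinery in stem cells, and supply of the methyl donor and of TET cofactors. Without the replicate block, edgeR called none of them in any clone comparison. With the block, the calls against a parental line were all in i7 clone 12, where 2 of 10 maintenance partners and 2 of 13 supply genes were called and 0 of 8 readers, 0 of 11 regulators and 0 of 13 repair genes, against 6.27% of all genes. Hells, a chromatin remodeller needed for methylation, was higher by 0.58 (edgeR adjusted p = 0.0266), and Uhrf2, the paralogue of Uhrf1, by 0.68 (adjusted p = 0.0202). Mat2a, which makes S-adenosylmethionine, was higher by 0.67 (adjusted p = 0.00428), and Idh2, which makes the TET cosubstrate 2-oxoglutarate, was lower (-0.53, adjusted p = 0.0276). Against clone 7, these 4 genes were called in the same directions, and the repair glycosylase gene Neil3 was lower in clone 12 (-1.02, edgeR adjusted p = 0.0148). The medians of the 5 lists in i7 clone 12 against its parental line lay between -0.11 and 0.19 in the fit without the block, beside -0.0026 for all genes.

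Between the parental lines, the joint edgeR test called 3 of 10 maintenance partners, 2 of 13 supply genes, 0 of 8 readers, 1 of 11 regulators and 1 of 13 repair genes, against 6.64% of all genes. The smallest p-values belonged to Cdca7l (adjusted p = 0.00821), a relative of the Hells activator Cdca7, and to Naa10 (0.0363). Among supply genes they belonged to the glycine decarboxylase gene Gldc (edgeR adjusted p = 0.00701) and to Idh1 (0.0111). Among regulators they belonged to Kdm2b (0.0454), whose product binds unmethylated CpG, and to Dppa3 (0.113). For repair they were Gadd45a (0.0211) and Gadd45g (0.0525), and for readers Zbtb33 (0.161) and Mbd3 (0.205). Of the naive markers 2 of 8 were called, Tbx3 (adjusted p = 0.00763) and Nanog (0.0162). The part of these naive genes in the Dnmt3l difference was not tested.

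With the replicate number, edgeR called 7 of 11 regulators, 1 higher and 6 lower in replicate 2, and 7 of 13 repair genes, 5 higher and 2 lower. It called 3 of 10 maintenance partners, all lower, 5 of 13 supply genes, 2 higher and 3 lower, and 2 of 8 readers, 1 in each direction, beside 28.1% of all genes. Among the regulators Prdm14, which represses the Dnmt3 genes in naive cells, was lower in replicate 2 (-0.46), and Dppa3 was higher (0.70). Gadd45g, of a family linked to demethylation, was higher by 3.04 and the glycosylase gene Neil2 by 1.46. Mat2a was lower (-1.08). Of the S phase genes 5 of 10 were called, all lower in replicate 2, and of the naive markers 1 of 8, Zfp42 (-0.40). The part of these differences in the values of Dnmt3b, Dnmt3l and Tet2 was not tested.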

How the data were processed

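RNA was measured in 24 libraries, made per the labels' protocols from poly(A) RNA with a stranded kit. The authors deposited raw counts per gene, with a 129S1 and a CAST column per library. Per the submitters' processing notes STAR, SAMtools and mm10 were used. The counting program, its annotation and strand setting and its treatment of reads without an informative variant are not given in the sources used here. Of 48985 gene identifiers, 48301 were matched to GENCODE M21. The counts of both alleles were added and tested with edgeR 4.0.16 in R 4.3.3: TMM, the filterByExpr filter, 1 quasi-likelihood fit of the 12 groups (12 residual degrees of freedom, 7 with the replicate block), and Benjamini-Hochberg adjustment over 16253 genes, called under 0.05. Allelic ratios were tested in the 10795 genes whose mean reached 10 counts on both alleles, in a fit of both columns with terms for the library and for the allele in each group. The p-values measure the spread between biological duplicates.

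Replicates with the same number deviated together within a recombination (r of 0.40 to 0.71 over 9 pairs of groups, median 0.56). Between recombinations r ran from -0.22 to 0.64. It was 0.55 to 0.64 between i12 and i10 lines and 0.40 to 0.62 between d3 and d6 lines, as within a recombination. Between i7 lines and the others it was at most 0.25, so pairing across all recombinations was not established. The replicate block given beside results is therefore nested in the recombination, and a block or term common to all lines is a separate alternative. The 9 genes and the lists were chosen with earlier results of these data known. The rule for named genes took the 9 genes, the list genes called in any clone comparison, the 2 smallest p-values per list in the joint parental test and the 2 genes most like each of the 9, of which 1 is not reported. Other list genes and Aire were named after their values were seen. Alternatives were DESeq2 1.42.0, other filters, single alleles, the replicate block, 1 recombination at a time, leaving out each library, and, chosen after seeing the data, an offset for exon length. Both tests were tested on simulated data. Total counts of 3286819 to 15581094 limit the precision for Tet3 and Dnmt3l.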

Additional observations from a re-analysis of the deposited data

How the results depend on the processing

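The reported fit, without a replicate block, called none of the 63 clone comparisons. With the replicate block within the recombination 1 of 63 was called (Dnmt3l in i7 clone 12), fitting only the libraries of the recombination 1, with no filter on low counts 2, and leaving out 1 library 0 to 2. Between clones 2 of 18 were called with the replicate block (Dnmt3b and Dnmt3l), 1 with no filter, 1 with the recombination's own libraries, and 0 to 0 on leaving out 1 library. The mean clone effect had 0 calls in the settings tried, the replicate block included. The test of unequal recombination effects gave 0 to 0 on leaving out 1 library and 1 with no filter. The joint test of the parental lines called 1 gene, with no filter 4, with the replicate block common to all lines 3 (Dnmt3l, Dnmt3b and Tet2), and on leaving out 1 library 0 to 3. It was 0 without i7 parental replicate 1 or i12 parental replicate 2 and 3 without d3 parental replicate 1. The joint test with the common replicate block called 22.6% of all genes. Pairs of parental lines gave 2 calls, and 18 with no filter, 1 from 129S1 counts alone and 3 from CAST counts alone. These pairs gave 3 calls with DESeq2, 1 with the exon length trend removed and 12 with the replicate block common to all lines. On leaving out 1 library they gave 0 to 7, with 0 without d3 parental replicate 2, either i7 parental library or either i7 clone 12 library, and 7 without d3 parental replicate 1. The Dnmt3l difference of d3 from i12 had edgeR or DESeq2 adjusted p from 3.81e-23 to 0.376, and that from i10 from 1.76e-22 to 0.429. The replicate number called 3 genes, and 6 with the exon length trend removed, 5 with DESeq2, 4 with no filter, 4 from either allele, and 3 to 5 on leaving out 1 library. Allelic changes in clones gave 0 to 4 calls on leaving out 1 library, 4 without d3 parental replicate 1, and 0 in the other settings. Imbalance in parental lines gave 7 to 8. On leaving out 1 library the log2 change of the Tet1 ratio ran from -1.36 to 0.044 in d3 clone 12 and from -1.35 to 0.058 in d3 clone 21, and it turned positive in both without d3 parental replicate 2. The cause of these shifts was not tested. Depth limits Tet3 (11 to 170 counts) and the i12 and i10 values of Dnmt3l (down to 6 counts).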
